A study of Mus musculus with 6 samples.

Results

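The urea transporter genes Slc14a1 and Slc14a2 lie side by side on mouse chromosome 18, and their open chromatin was followed across 6 ATAC-seq libraries. ATAC-seq reads where a transposase can reach the DNA, so a peak marks open chromatin. The members were chosen by position: every peak whose summit lay inside either gene or within 50 kb of them on GRCm38. Peaks of the 6 lists that shared at least 1 bp were joined, which gave 26 regions, called elements here, of 99359 in the whole series. The locus itself was chosen from the comparison of the operations, because 1 element in an intron of Slc14a2 stood among the largest differences of the series. The values of that comparison are therefore given as a description. Counts of calls from the fit across all regions are printed beside their background share, and nothing is drawn from them about the locus.

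All mice were male, wild-type C57BL/6 animals aged 7 weeks, and tissue was taken 24 h after surgery. Sham mice had a sham operation, and UNx mice had 1 kidney removed (unilateral nephrectomy). Each library came from 3 proximal tubules dissected by hand from the S1 segment, where the proximal tubule begins. There were 3 libraries of each operation, and the labels do not say whether each came from its own mouse, so the spread between libraries may be technical.

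Urea transporters are membrane channels that let urea cross cell membranes down its gradient. Slc14a1 encodes UT-B, known from red cells and from the endothelium of the vasa recta, the vessels of the renal medulla. Slc14a2 encodes the UT-A proteins, among them UT-A1 and UT-A3 of the inner medullary collecting duct, which vasopressin controls, and UT-A2 of the thin descending limb. Together they keep urea in the medulla and serve urine concentration. The S1 segment is not among the sites for which these transporters are known.

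Both genes are read from the minus strand. Slc14a1 (ENSMUSG00000059336.14) spans 42.0 kb from 78100091 to 78142119, and Slc14a2 (ENSMUSG00000024552.16) spans 451 kb from 78146148 to 78596942. Slc14a2 has several annotated starts in GENCODE M21. Transcript Slc14a2-201 starts at 78209094 and codes for 930 residues, the long form called UT-A1 here, and its start is the reference point for all distances below. Slc14a2-205 starts inside the gene at 78179134 and codes for 397 residues, the length of the short form UT-A2. A far first exon at 78596942 begins transcript Slc14a2-206, whose introns 2 and 3 run over 258 kb and 117 kb before the exons shared with Slc14a2-201.

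Each list was cut to its 77355 strongest peaks by the authors' −log10 q, the length of the shortest list. A peak's percentile rank within its list runs from near 100 for the strongest to 0 for an element not among those peaks. Ranks within a list are a relative scale, and the lists hold no read counts, so the depth of each library is unknown. A higher rank cannot tell more cells with the element open from a wider opening in each cell.

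The lists held 77355 to 97834 peaks in Sham and 93583 to 100999 in UNx libraries, with Sham 2 the shortest. Promoters of all 9 S1 marker genes, Slc5a2, Slc34a1 and Lrp2 among them, carried a peak within 1 kb of a start in all 6 lists. Of 10 collecting duct markers, Aqp2, Scnn1b and Gata3 had none in any list, and 5 had one in all 6. The red cell markers Epb42, Klf1, Kel and Gata1 had none in any list. For 10 endothelial markers, 2 had a start peak in all 6 lists. Of 5 thin descending limb markers 3 did, including Aqp1, which S1 cells also use.

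The annotated starts of Slc14a2 were without peaks. None of the 5 starts had a summit within 1 kb in any of the 6 full lists, weaker peaks included. The element nearest to the UT-A1 start lay 3146 bp upstream of it, and the nearest to the far first exon 36978 bp inside the gene, or 18172 bp upstream of the gene counting the weakest deposited peaks. For the start of the short form the nearest element was 10059 bp away, or 2620 bp counting the weakest deposited peaks. The summits of all 20 elements of Slc14a2 lay in its introns. A weaker peak of UNx 2, outside the 77355 strongest of its list, had its summit at 78163158 in exon 13 of Slc14a2-206.

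Slc14a1 differed in this respect. The element at 78123837 to 78124305, whose summit lies 729 bp upstream of the Slc14a1-201 start and within intron 1 of the longer transcript Slc14a1-203, was in all 6 lists. Its percentile ranks were 56.9, 74.3 and 53.8 in Sham libraries 1, 2 and 3, and 51.8, 61.6 and 40.7 in UNx libraries 1, 2 and 3. The group means were 61.7 ± 11.0 and 51.4 ± 10.5 (SD, n = 3 each), so this promoter element held a middle rank in both operations and the groups overlapped. Across all 12068 promoter regions tested, the median percentile was 85.8. The distal start of Slc14a1-203 had no summit within 1 kb in any list.

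The other 3 elements of Slc14a1 also lay in intron 1 of Slc14a1-203. One at 78138260 to 78138585, 3664 bp inside the distal start, ranked at 41.4, 69.9 and 60.9 in Sham and at 57.1, 48.9 and 27.5 in UNx libraries. Another at 78126616 to 78127253 ranked at 31.4, 7.12 and 0.951 in Sham and at 21, 49.2 and 32.9 in UNx libraries. Both sets of values overlapped between the operations. The last was in UNx 2 alone.

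**Figure D1:**
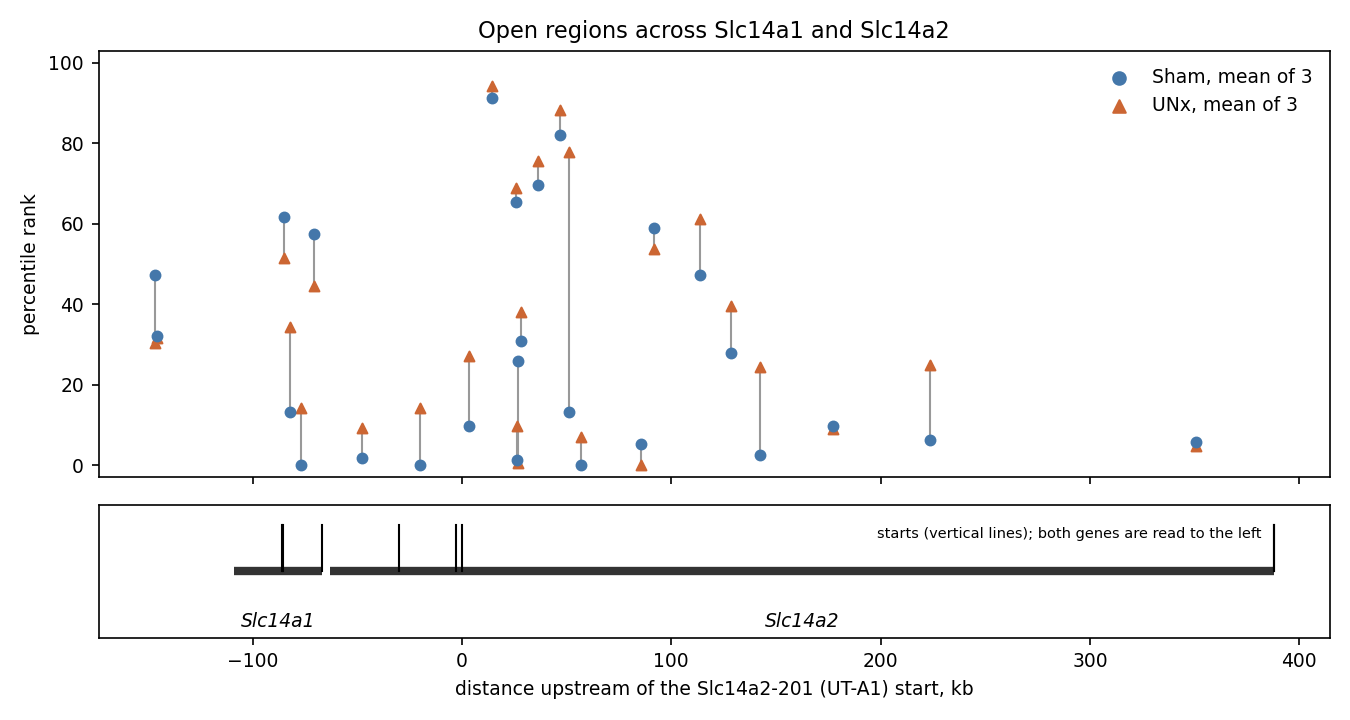
Mean percentile rank of each of the 26 elements in Sham (circles) and UNx (triangles) libraries, 3 of each, against its distance upstream of the UT-A1 start in kb; grey lines join the 2 means of an element. Lower panel: the extent of both genes with their annotated starts as vertical lines. The longest line, at 51.1 kb, runs from 13.1 to 77.7, while no element stands at the Slc14a2 starts.

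Within Slc14a2, elements were densest in one stretch. Intron 3, between the UT-A1 start and exon 3 of Slc14a2-206, held 13 elements, or 11.1 per 100 kb. The adjacent gene Slc14a1, with 4 elements, had a similar density of 9.52 per 100 kb. Intron 2, at 258 kb, held 5 elements (1.94 per 100 kb), all of them with a mean percentile of 33.6 or less. Between the 3′ end of the gene and the UT-A1 start there were 2 elements, neither in more than 2 lists, and none in the first exons and the 50 kb upstream of them. Over the whole gene body Slc14a2 held 4.44 regions per 100 kb, and the median over 2492 protein-coding genes of at least 100 kb was 3.73.

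The strongest element of the locus was at 78222875 to 78224049, 14.3 kb upstream of the UT-A1 start. It ranked at 94.8, 92.0 and 86.6 in Sham and at 94.7, 95.1 and 92.7 in UNx libraries, near the top of every list. The means of 91.1 ± 4.21 and 94.2 ± 1.29 (SD, n = 3 each) overlapped. Next in mean rank came the elements at 46.9 kb and 36.4 kb upstream, in the same intron. At 78245228 to 78245974, the weaker of this pair, the ranks were 67.6, 65.9 and 75.6 in Sham and 70.8, 71.5 and 84.2 in UNx libraries, again with overlap.

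At 78255536 to 78256480, 46.9 kb upstream of the UT-A1 start, the ranks were 81.4, 81.6 and 82.9 in Sham and 89.5, 89.6 and 86.1 in UNx libraries. All 3 UNx values lay above all 3 Sham values, with means of 82.0 ± 0.838 and 88.4 ± 2.0 (SD, n = 3 each). This order reversed when peaks were ranked by fold enrichment, where the difference was −9.17 percentile points. The authors' fold enrichment here was 10.7, 9.23 and 11.3 in Sham and 9.45, 9.16 and 9.50 in UNx libraries.

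The element for which the locus was chosen lies 4172 bp further upstream, at 78259912 to 78260493, in the same intron and 51.1 kb from the UT-A1 start. It ranked at 19.1, 8.42 and 11.6 in Sham libraries and at 78.5, 77.8 and 76.8 in UNx libraries. All Sham values were low in their lists and all UNx values high, with 57.7 percentile points between the nearest values of the groups. Group means were 13.1 ± 5.51 and 77.7 ± 0.846 (SD, n = 3 each), a difference of 64.7 percentile points, and 3 tested regions of the whole series had a larger positive difference.

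This element was not absent in the Sham libraries. Every list held it as 1 interval with 1 summit, and the 6 summits lay within 146 bp of each other. The authors' fold enrichment was 3.80, 3.00 and 3.61 in Sham and 7.31, 7.0 and 7.72 in UNx libraries, a ratio of the means of 2.12. The authors' −log10 q was 10.4, 3.2 and 8.70 in Sham and 49.7, 77.3 and 108.1 in UNx libraries. Its width was 462, 416 and 454 bp in Sham and 514, 561 and 566 bp in UNx libraries. On each of these 3 scales the UNx values lay above the Sham values, but −log10 q and width also grow with depth, and their part in the difference was not tested.

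**Figure D2:**
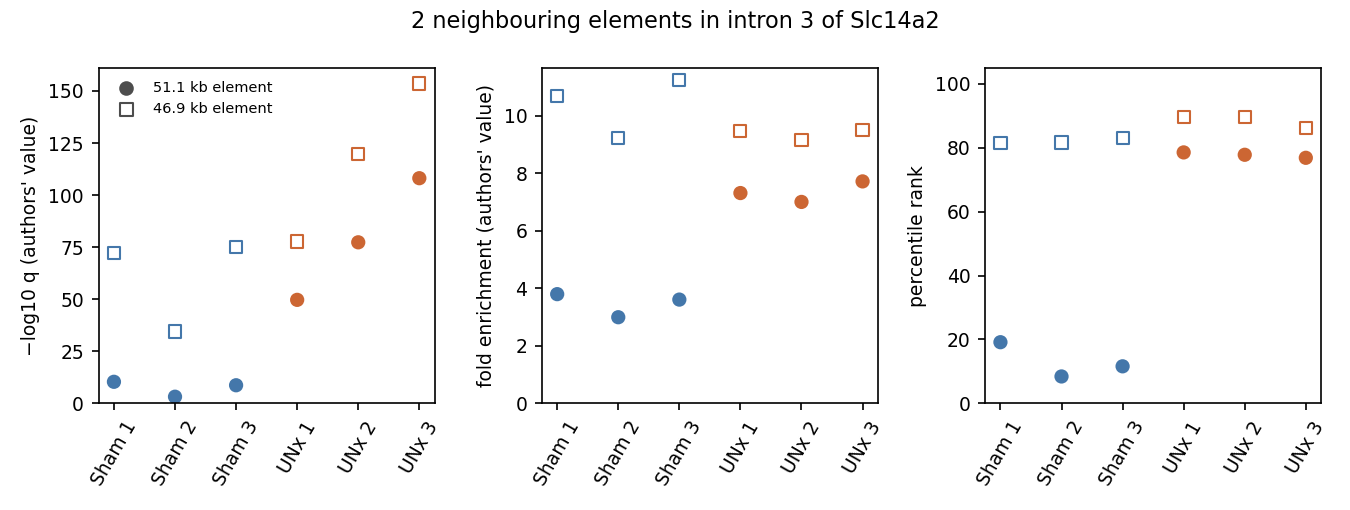
The authors' −log10 q, the authors' fold enrichment and the percentile rank in each library for the element at 51.1 kb (filled circles) and its neighbour at 46.9 kb (open squares); blue, Sham; orange, UNx. Fold enrichment at 51.1 kb is 3.0 to 3.80 in Sham and 7.0 to 7.72 in UNx libraries, while at 46.9 kb it is 9.23 to 11.3 in Sham and 9.16 to 9.50 in UNx libraries.

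Collecting duct markers, of the segment where UT-A1 is known, had a higher summed level in UNx, with members moving both ways. Over the 6 of 10 markers with a tested promoter region, the summed percentile was 333 to 367 in Sham and 384 to 410 in UNx libraries. Within the list, Hsd11b2 averaged 59.9 in Sham and 71.9 in UNx libraries, Aqp4 21.9 and 41.7, and Aqp3 81.5 and 85.6. Elf5, in 4 lists, averaged 10.4 and 22.6, whereas Scnn1g averaged 93.0 and 86.8 and Fxyd4 88.3 and 84.6. The groups overlapped at Aqp4, Elf5 and Fxyd4. The defining gene Aqp2 had no start peak in any list, and Avpr2 had one in 1 list. The part of such cells in the difference at the 51.1 kb element was not tested. For the thin descending limb list the sums were 260 to 268 in Sham and 259 to 265 in UNx libraries, over 3 of 5 markers.

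For the endothelial list, over 4 of 10 markers, sums ran from 47.1 to 84.2 in Sham and from 44.9 to 56.6 in UNx libraries. Egfl7, alone of the 4, had a higher mean in UNx, at 32.1 in Sham and 48.8 in UNx libraries. Flt1, a receptor gene of the vascular growth factor, averaged 11.9 in Sham libraries and was not among the strongest peaks of any UNx list. Eng averaged 13.9 in Sham and 1.75 in UNx libraries, and Cdh5 4.98 and 1.46. Counting weaker peaks, Flt1 had a start peak in 5 of the 6 full lists, so it was not missing from all UNx lists. Cdh5 had one in 5 and Eng in 4. The part of endothelial or red cells in the values at Slc14a1 was not tested.

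Of the 26 elements, 21 were in at least 3 lists and so entered the fit made across all 74781 such regions. The other 5 were in 1 or 2 lists, and 2 of them were in UNx 2 alone. With limma and Benjamini-Hochberg adjustment over all tested regions, 1 of the 21 was called (higher in UNx) and 0 were called lower; 3 had an unadjusted p under 0.05. In the whole series 0.788% of tested regions were called, 0.435% were called higher, and 18.6% had an unadjusted p under 0.05. Nothing is read from these counts, since the same comparison chose the locus. The called element was the one at 51.1 kb. With GC-corrected ranks, or without UNx 1 or UNx 3, 0 of the 21 were called, and 0 of 19 with fold enrichment as the ranking value.

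In 3 of the 21 elements the groups did not overlap, all with UNx above Sham, against 23.7% of all tested regions (12% with UNx above). Besides the elements at 46.9 and 51.1 kb this was a weak element at 78432699 to 78432980 in intron 2. It ranked at 18.3, 0 and 0 in Sham and at 19.0, 36.3 and 19.5 in UNx libraries. In the full lists its ranks were 35.4, 0 and 10.5 in Sham and 33.0, 51.2 and 36.6 in UNx libraries, where the groups overlapped. Conversely, 2 elements that overlapped among the strongest peaks did not in the full lists, with UNx above in both. These were the element at 78351210 to 78352004, with 17.4, 7.12 and 1.77 in Sham and 19.7, 38.7 and 60.6 in UNx libraries, and the one at 78235190 to 78235677, with 0, 3.93 and 0 in Sham and 16.3, 27.8 and 39.5 in UNx libraries. The share of all full-list regions without overlap is not given here, so nothing is read from these full-list values. No element was exclusive to an operation, present in its 3 lists and missing from the other 3, as 1.98% of all merged regions were.

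Over the 21 elements, 13 had a higher mean in UNx and 8 a lower one, and nothing is read from this count. The median difference was 5.79 percentile points, against −0.0112 over all tested regions, and 4.66 without the 51.1 kb element. It was 2.16 without Sham 2, 2.89 without UNx 3, 3.29 with 100 kb on either side of the genes, and 0.335 over 19 elements ranked by fold enrichment. The other 20 differences ran from −25.4 to 21.9. At the lower end stood the element at 78235844 to 78236284, 26.9 kb upstream of the UT-A1 start, with ranks of 0, 29.1 and 48.8 in Sham and 0, 1.67 and 0 in UNx libraries. Sham 1 was as low there as the UNx libraries, so the groups overlapped. In the full lists its ranks were 15.9, 29.1 and 59.2 in Sham and 0, 24.7 and 16.2 in UNx libraries, also with overlap. That element and the upper end were chosen after their values were seen. The upper end was the element at 78351210 to 78352004 in intron 2, with 0, 7.12 and 0 in Sham and 2.90, 20.0 and 50.01 in UNx libraries.

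The signs by part of the locus are given as a description only, since the same comparison chose the locus. Of the 11 tested elements of intron 3, the 51.1 kb element among them, 9 had a higher mean in UNx, and of the 5 in intron 2, 3 did. With fold enrichment as the ranking value, the differences at 14.3, 36.4 and 46.9 kb were 0.335, 0.0306 and −9.17, and 49.9 at 51.1 kb. Among the 3 tested elements of Slc14a1, 1 had a higher mean in UNx, and of the 2 between Siglec15 and Slc14a1 neither did. The element nearest the UT-A1 start, 3146 bp upstream, ranked at 24.2, 0 and 5.16 in Sham and at 24.6, 45.3 and 11.7 in UNx libraries, so its groups overlapped.

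**Figure D3:**
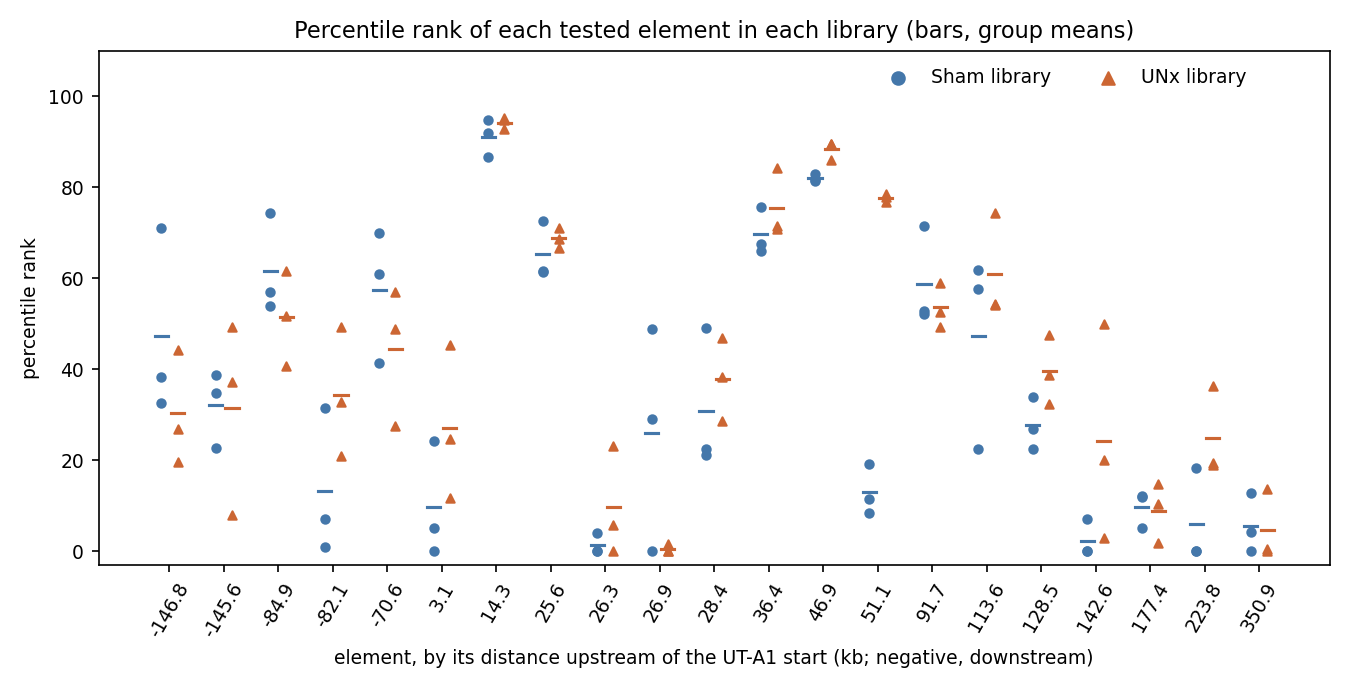
Percentile rank of the 21 tested elements in each Sham (circles) and UNx (triangles) library, with group means as bars; elements are in order along the chromosome and named by their distance upstream of the UT-A1 start in kb (negative, downstream). The groups are apart by 57.7 percentile points at 51.1 kb and overlap in 18 of the 21 elements.

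The number of peaks in the locus overlapped between the operations. Among the strongest peaks it was 18, 19 and 20 in the Sham lists and 18, 24 and 21 in the UNx lists, or 19 ± 1 and 21 ± 3 (SD, n = 3 each). Counting all deposited peaks it was 20, 19 and 24 in Sham and 22, 31 and 25 in UNx lists. The weaker peaks added 8 regions, 6 of them in 1 list and none in more than 2. The highest number came from UNx 2, whose list is also the longest.

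Elements of the locus ranked lower than the series as a whole. Their median percentile over the 6 libraries was 34.4, against 48.4 for all tested regions, and 2 of 21 had a mean above 80, against 19.3% of all. Of the 26 elements, 15 (57.7%) were in all 6 lists, and 53.4% of all regions were. None of the 26 had its summit in an annotated exon. Median GC content was 48.7% (range 37.2 to 55.2%) and 49.6% over all tested regions, and the median width was 600 bp against 634 bp. The 51.1 kb element had a GC content of 49.7% and a width of 582 bp.

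On the Slc14a1 side the outermost element inside lay 37.8 kb from the gene (mean percentile 47.3 in Sham and 30.3 in UNx libraries), and the first region outside lay 51.5 kb away (59.5 and 56.0). On the far side the first region outside was 131 kb from Slc14a2 (62.9 and 66.2), and the outermost element inside lay within the gene at 350.9 kb from the UT-A1 start (5.65 and 4.77).

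Promoters of the neighbouring genes gave the setting. Gm6133, at 0 kb from the 2 genes, had a start peak in 1 list and no tested promoter region. Siglec15, whose start is 42.7 kb from Slc14a1, had no start peak in any list. The autophagy gene Epg5 had means of 88.5 ± 0.989 for Sham and 91.2 ± 2.63 for UNx, and Setbp1, on the other side, 50.1 ± 17.1 and 66.1 ± 8.25 (SD, n = 3 each). Atp5a1, a subunit gene of the mitochondrial ATP synthase, shares its promoter region with Haus1, which ranked at 94.1 ± 1.14 and 86.5 ± 6.15. Of the 7 neighbours within 1 Mb that had a tested promoter region, 0 were called by limma, against 0.423% of all promoter regions tested.

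Consensus strings for transcription factor families were searched on both strands within 100 bp of each summit. Of the 21 tested elements, 5 held the core TGGAAA of the tonicity element bound by NFAT5, the factor of the osmotic response, and 15.5% of all tested regions did. The 46.9 kb and 51.1 kb elements were among these 5. The TEAD string GGAATG was in 3 of the 21 and in 12.5% of all regions. None of the 21 tested elements held the AP-1 string TGANTCA (7.24% of all regions), the HNF4 string CAAAGTCCA (2.42%), the CREB string TGACGTCA (0.683%) or the strings searched for CTCF (2.47%), the glucocorticoid receptor (0.516%) and the PPAR direct repeat (0.0588%). One tested element, at 142.6 kb upstream, held the HNF1 string (0.326% of all regions). No string contains another, and a match is only a match of letters.

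The 5 regions elsewhere whose 6 percentile ranks were nearest to those of the 51.1 kb element were found by the root mean square difference over the 6 libraries. The nearest was in Phldb2 on chromosome 16 (45892773 to 45893478), at 8.89 percentile points, with means of 12.9 in Sham and 79.5 in UNx libraries. Next came a region 36.4 kb from Id3 on chromosome 4 (9.38; 6.01 and 70.7) and one 37.4 kb from Frmd8 on chromosome 19 (9.58; 11.1 and 68.2). A region in Plekha7 on chromosome 7 (9.72; 10.7 and 71.4) followed, and then one 0.388 kb outside Cyp24a1, the vitamin D 24-hydroxylase gene, on chromosome 2 (10.4; 20.0 and 76.4). All 5 lay 14108 bp or more from the nearest annotated start.

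Other genes that make, carry or control urea were read at their promoters, in 3 lists. Of 18 genes of urea synthesis and arginine metabolism 14 had a tested promoter region. Limma called 0 of them, against 0.423% of all promoter regions. Of the 14 genes, 2 (14.3%) had an unadjusted p under 0.05, against 13.5% of all promoter regions. Their median difference was −0.411 percentile points, and −0.183 over all promoter regions. Cps1 and Otc, which make and use carbamoyl phosphate in the liver's urea cycle, had no tested promoter region, while Ass1 and Asl, which form arginine in the proximal tubule, had Sham means of 89.6 ± 3.38 and 86.0 ± 1.41 and UNx means of 85.0 ± 2.63 and 87.0 ± 2.73 (SD, n = 3 each).

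Arg2, the mitochondrial arginase that splits arginine into urea and ornithine, had the smallest p of this list. Its promoter (chromosome 12, 79130330 to 79131243) ranked at 67.7, 56.9 and 77.8 in Sham and at 84.2, 82.0 and 87.2 in UNx libraries. The groups did not overlap, as in 20.2% of all promoter regions tested. The difference of 16.99 percentile points did not pass the test (limma adjusted p = 0.0989). Nags, which makes the activator of Cps1, ranked at 20.1, 0 and 0 in Sham and at 12.9, 42.6 and 35.7 in UNx libraries, where the groups overlapped (limma adjusted p = 0.262).

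Of 19 genes for urea and water channels and their hormonal control 13 were tested. Limma called 0 of the 13, against 0.423% of all promoter regions. An unadjusted p under 0.05 was found for 2 (15.4%), against 13.5% of all promoter regions. The median difference was 0.397, against −0.183 over all promoter regions. Rapgef3, a cAMP-regulated exchange factor, ranked at 82.0, 77.6 and 81.1 in Sham and at 93.9, 88.8 and 85.0 in UNx libraries (limma adjusted p = 0.134). Mdm2, a ubiquitin ligase, ranked at 89.9, 90.2 and 92.1 in Sham and at 79.6, 81.3 and 89.8 in UNx libraries (limma adjusted p = 0.184). Neither passed the test. The groups did not overlap in either, as in 20.2% of all promoter regions tested. Aqp1, the water channel of the proximal tubule, ranked at 86.6 ± 1.22 and 87.9 ± 2.21 (SD, n = 3 each).

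Adcy6, an adenylyl cyclase downstream of the vasopressin receptor, had no tested region within 1 kb of a start. A region 2418 bp from its start (chromosome 15, 98608772 to 98610525) ranked at 69.6, 80.2 and 76.7 in Sham and at 93.4, 91.5 and 94.2 in UNx libraries. This rise, seen with a promoter window of 2.5 kb, passed the test (limma adjusted p = 0.0281). The call held in 3 of 17 alternatives, whose adjusted p ran from 0.0102 to 0.416, and the region was chosen after its values were seen.

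Of 9 osmotic response genes 8 were tested, and limma called 0, against 0.423% of all promoter regions. An unadjusted p under 0.05 was found for 2 of the 8 (25%), against 13.5% of all promoter regions. The median difference was −3.18, against −0.183 over all promoter regions. Of the 8 genes 2 were higher in UNx, as were 5704 of all 12068 promoter regions. With 8 genes, nothing is read from these counts. Slc6a6, the taurine transporter, ranked at 90.8, 88.8 and 90.2 in Sham and at 77.3, 76.6 and 85.9 in UNx libraries (limma adjusted p = 0.105). Slc5a3, the myo-inositol transporter, ranked at 90.1, 87.0 and 87.4 in Sham and at 78.0, 77.3 and 84.4 in UNx libraries (limma adjusted p = 0.163). In both the 3 UNx values were the lower ones, and neither passed the test. Groups without overlap, in either direction, were found in 20.2% of all promoter regions tested. Nfat5 itself ranked at 87.6 ± 2.31 and 83.5 ± 2.88 (SD, n = 3 each).

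**Figure D4:**
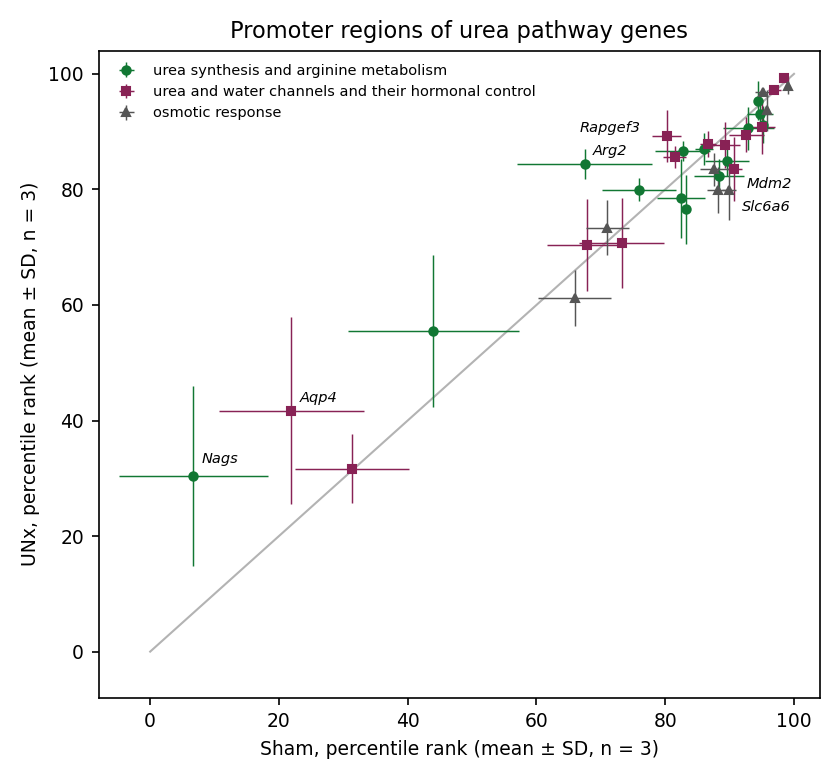
Promoter percentile rank of the 35 tested genes of the 3 lists, UNx against Sham, as means with SD (n = 3 libraries each); the grey line marks equal ranks. Most genes lie near the line above 80, with Arg2 and Nags above it and Slc6a6 below it, and none passed the test.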

How the data were processed

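ATAC-seq peak lists of 3 Sham and 3 UNx libraries were used, 1 list per library, grouped by the labels. Per the submitters' processing notes, the tools included cutadapt 3.4, Bowtie, SAMtools, Picard and MACS2 2.2.7.1, with build mm10; the filter applied to the lists is not given in the sources used here. The deposited lists give per summit a fold enrichment (a ratio over background), a −log10 p, a −log10 q and a display score that is 10 times the −log10 q. These are the authors' values and serve only to describe and rank peaks within a list. Library depth is unknown, so no interval that needs depth is given.

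A peak was 1 distinct interval with its strongest summit. All intervals lay within GRCm38 chromosomes, and genes came from GENCODE M21 (basic set). Regions in at least 3 lists were compared with limma 3.58.1 in R 4.3.3 (two-sided, moderated with a trend and robust to outlying variances; Benjamini-Hochberg threshold 0.05), a step tested on simulated data. A gene's promoter region was the tested region of highest mean percentile whose summit was at most 1 kb from an annotated start. Elements named were those within 1 kb of a start, called, in one operation's lists only, highest in mean (3), or largest in difference without overlap (3 each way); per gene list, the called genes and the 2 of smallest p; and the 5 regions most like the leading element. The members, lists and strings were chosen with earlier results of these data known. Sequences of this locus were not printed. One marker gene is not reported here.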

Additional observations from a re-analysis of the deposited data

How the results depend on the processing

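All 17 alternatives fitted reused the same lists, and those that changed only the fit or the joining of peaks left the difference at 51.1 kb unchanged. The element at 51.1 kb had a higher mean rank in UNx in each, which is no separate support, since this comparison chose it. Its difference of 64.7 percentile points became 57.7 over the full lists, 49.9 when fold enrichment set the ranks and 13.8 with the 20000 strongest peaks, where 3 elements of the locus were tested, and 1.68 on the normal score scale, which has another unit. Leaving out each library in turn gave 62.3 to 67.7. The count of 1 called element became 0 with the 20000 strongest peaks, fold enrichment as the ranking value, GC-corrected ranks, regions of any list count, and the replicate block with GC-corrected ranks, and 0 to 1 when a library was left out (0 without UNx 1 or UNx 3); the cause was not tested. Calls over the whole series moved too, from 589 to 1583 with normal scores, 56 with the replicate block, 22 over the full lists, 3 ranked by fold enrichment, 2 for each of the 20000 strongest peaks, GC correction and regions of any list count, and 4 to 76 with a library left out. The median difference over the elements (5.79 percentile points) was positive in every alternative run: 0.335 ranked by fold enrichment, 13.8 over the 3 elements tested with the 20000 strongest peaks, 2.16 to 8.14 with a library left out, 3.29 to 6.65 in the others on this scale, and 0.187 in normal score units. At 46.9 kb the difference of 6.39 was −9.17 when fold enrichment set the ranks. The count of list genes called was 1 with a promoter window of 2.5 kb (Adcy6) and 0 otherwise.

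Replicate numbers recur in both operations. The correlation between same-numbered Sham and UNx libraries, each taken as its departure from the group mean, was 0.00819, −0.100 and −0.0496, which is no sign of pairing. With the replicate block 1 element was called, at an unchanged difference of 64.7, and with GC-corrected ranks added there were 0 calls in the whole series. Depth, which the lists do not give, limits every comparison of −log10 q between libraries.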
